A study of Drosophila melanogaster with 2 samples.

Results

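Coding exon peaks are places where the authors called a peak for the fly transcription factor Gcm over protein-coding sequence, away from gene starts. They were the peaks of the pooled list whose summit, the highest point of the peak, lay inside a coding interval of a protein-coding gene and more than 500 bp from every protein-coding transcription start site (TSS). Of 30000 pooled peaks, 664 met this rule, which is 2.21% (95% exact Clopper-Pearson interval 2.05 to 2.39%). The stricter list of 5707 peaks that passed the authors' irreproducible discovery rate (IDR) threshold, a measure of how repeatable peak ranks are between replicates, held 69 of them, or 1.21%. In these files the 5707 IDR-thresholded peaks were the 5707 pooled peaks of highest signal, so passing the threshold is a measure of pooled height. The label held in the annotation, where 554 of the 664 summits were coding in every protein-coding transcript that spans them, and 1 summit lay in coding sequence of more than 1 gene.

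The study was chromatin immunoprecipitation followed by sequencing (ChIP-seq) on whole embryos of Drosophila melanogaster, mixed sex, 0 to 16 hours old, of the strain gcm-GFP. The labels describe an insertion targeting gcm and flies that carry the factor as a fusion with eGFP, and an anti-GFP antibody precipitated it from chromatin sheared by sonication to a labelled size of 200-800. The 2 biological replicates, numbered 1 and 3, form a single group with the same genotype, age and treatment, and there is no second group to compare them with. Whole embryos mix many cell types, and a peak does not tell which cells it comes from.

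Glial cells missing (Gcm) is a zinc-containing transcription factor that directs precursor cells to become glia in the fly embryo and also acts in the embryonic blood lineage. It is known to bind DNA words of the form ATGCGGGT or ATGCGGGC and close variants of them. Coding exons are under constraint for the protein they encode, so a factor's word inside one is also a stretch of codons.

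The Gcm word was sought as 4 spelled forms, ATACGGGC, ATACGGGT, ATGCGGGC and ATGCGGGT, on both strands. Of the 13 words counted at coding exon summits it was the most frequent. The 10 windows printed here hold the word at the highest IDR-thresholded coding exon peaks outside one chromosome arm that is not printed. Each is 40 bases from the Release 6 assembly (dm6), written 5′ to 3′ on the strand of the word, with the word in capitals and the coordinates in parentheses.
CG13728 (chr3L:17382141-17382180, minus strand): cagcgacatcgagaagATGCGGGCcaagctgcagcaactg
SCaMC (chr3L:12404708-12404747, minus strand): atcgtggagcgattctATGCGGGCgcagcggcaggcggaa
CG15822 (chr3L:2158800-2158839, plus strand): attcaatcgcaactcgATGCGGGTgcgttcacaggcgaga
mld (chr3R:24620685-24620724, minus strand): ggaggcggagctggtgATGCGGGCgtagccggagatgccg
Ogdh (chr3L:16966311-16966350, minus strand): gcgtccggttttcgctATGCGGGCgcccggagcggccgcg
ss (chr3R:16376417-16376456, plus strand): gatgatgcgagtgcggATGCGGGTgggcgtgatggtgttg
ssx (chrX:1372858-1372897, minus strand): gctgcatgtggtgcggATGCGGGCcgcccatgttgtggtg
Pcif1 (chr3L:20784028-20784067, minus strand): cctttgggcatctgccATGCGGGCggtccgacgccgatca
robo2 (chr2L:1395957-1395996, minus strand): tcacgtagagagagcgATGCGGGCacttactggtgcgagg
pnt (chr3R:23292427-23292466, minus strand): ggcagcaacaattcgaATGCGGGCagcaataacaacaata
All 10 had G as the third base of the word. The last base was C in 8 of them and T in 2, and the bases outside the word showed no fixed sequence across the set.

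Longer windows, the summit with 100 bases on each side, are printed for 3 strong peaks, on the plus strand of dm6, because they differ in which words they hold. The CG13728 window carries the Gcm word on the minus strand, read here as its complement and given in capitals, and also a CAG repeat, left in lower case. The Pde1c window, at the second highest coding exon peak, has no exact copy of the word. The E2f1 window has no exact copy either and holds a run of the CAG triplet, read on this strand as CTG and given in capitals.
CG13728 (chr3L:17382090-17382290): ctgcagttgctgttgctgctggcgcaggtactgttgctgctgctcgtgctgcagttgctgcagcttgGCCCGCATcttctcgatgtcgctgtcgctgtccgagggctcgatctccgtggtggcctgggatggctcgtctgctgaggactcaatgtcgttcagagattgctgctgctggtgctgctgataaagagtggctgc
Pde1c (chr2L:11816493-11816693): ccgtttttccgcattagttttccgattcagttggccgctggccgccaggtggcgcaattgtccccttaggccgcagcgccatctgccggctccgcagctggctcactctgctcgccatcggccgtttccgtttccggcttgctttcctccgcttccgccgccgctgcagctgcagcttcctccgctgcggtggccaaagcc
E2f1 (chr3R:21626325-21626525): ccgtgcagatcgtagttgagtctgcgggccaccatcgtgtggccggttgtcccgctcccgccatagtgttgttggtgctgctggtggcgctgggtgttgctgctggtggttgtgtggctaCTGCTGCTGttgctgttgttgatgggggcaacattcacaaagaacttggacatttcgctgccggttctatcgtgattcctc

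Coding exon peaks were few for the amount of coding sequence. Coding bases more than 500 bp from a TSS made up 18.9 Mb, 14.1% of the arms used, and held 35.2 pooled summits per Mb. Introns held 254 per Mb, intergenic sequence 187, untranslated exon sequence (UTR) 131 and the 500 bp around gene starts 492. The replicates' own lists, called separately, held 736 and 733 summits that meet the same rule, or 2.45% ± 0.00707 (SD, n = 2). Both replicate lists hold 30000 peaks, as the pooled list does, so these counts and shares depend on where the lists end. Peak lists give no library totals, so read depth is unknown here.

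These peaks were also of low height. The signal, the height given to each peak by the authors' caller, had a median of 62.6 over the 664. It ran from 37.8 to 734. The median was 70.3 over UTR peaks, 77.7 over the 20881 intron and intergenic peaks and 121.5 over peaks within 500 bp of a gene start. None of the 500 highest pooled peaks had a coding exon summit, which allows a share of up to 0.6% (3 counts of the total). The share was 2% at ranks 501 to 1000, 1.27% at ranks 2001 to 5707 and 3.74% at ranks 25001 to 30000. Deposited q-values were under 0.05 for 298 of the 664 (44.9%) against 57.0% of intron and intergenic peaks (two-sided Fisher's exact test, adjusted p = 3.48e-09 over 9 contrasts). A width of 424 bp, the commonest in the list, was found in 606 of them, so most intervals have the same length and only the summit places them.

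**Figure D1:**
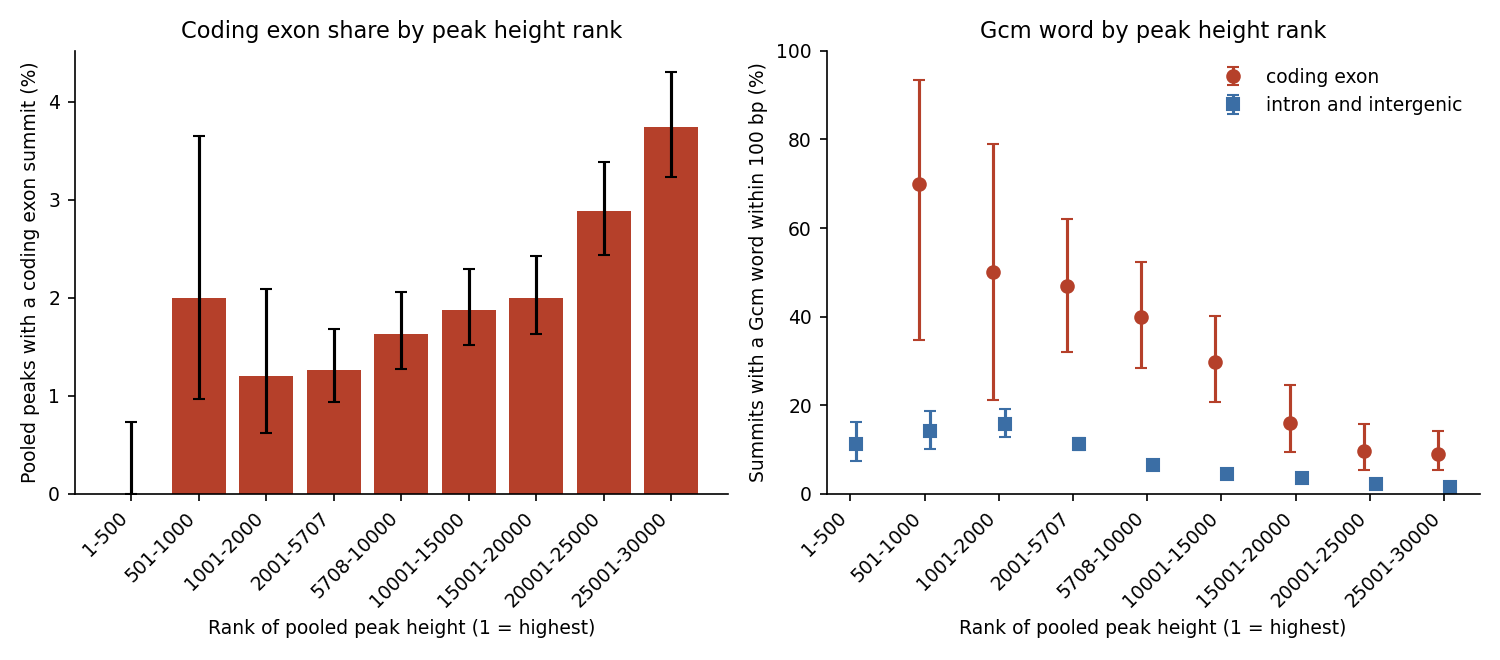
The left panel plots the percent of pooled peaks whose summit lay in a coding exon, by rank of peak height, and the right panel the percent of summits with a Gcm word within 100 bp, for coding exon peaks (circles) and for intron and intergenic peaks (squares). Bars and points are shares with 95% exact intervals. The coding share rises to 3.74% at the lowest ranks, while the share with the word among coding exon peaks falls from 70.0% to 9.09%.

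Fewer coding exon peaks than intron and intergenic peaks were in the top of the list or in both replicate lists. The first is the difference in height again, counted at rank 5707, where the IDR list ends. The second was not compared at matched height. The IDR threshold was passed by 10.4% of them (8.18 to 12.97%) and by 15.7% of intron and intergenic peaks, an odds ratio of 0.621 (0.475 to 0.800; two-sided Fisher's exact test, p = 1.09e-04). A peak of each replicate's own list, by an overlap of at least 1 bp, was found for 423 of the 664 (63.7%) against 77.0%, an odds ratio of 0.524 (0.445 to 0.619; Fisher's exact test, p = 3.97e-14). Replicate 1 held 548 of them, replicate 3 held 513, and 26 were in neither list. All 69 IDR-thresholded members were in both replicate lists, against 59.5% of the other 595. The pooled list was called on both replicates, so recovery in both lists is no independent check of a peak. UTR peaks, also more than 500 bp from a TSS, were not part of these contrasts, and 99 of 908 passed the IDR threshold.

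Among the 423 peaks found in both lists, height followed the same order in the replicates. Spearman's rho across peaks was 0.81 over the 423 and 0.86 over the 69 IDR-thresholded ones, given as a description, since peaks share libraries and are not replicates. The median ratio of replicate 1 to replicate 3 signal was 1.24, on scales that the authors' caller set separately. Neighbouring pooled summits can fall in a single replicate peak and then carry the same replicate value, and a stronger pooled summit lay within 500 bp of 100 of the 664.

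**Figure D2:**
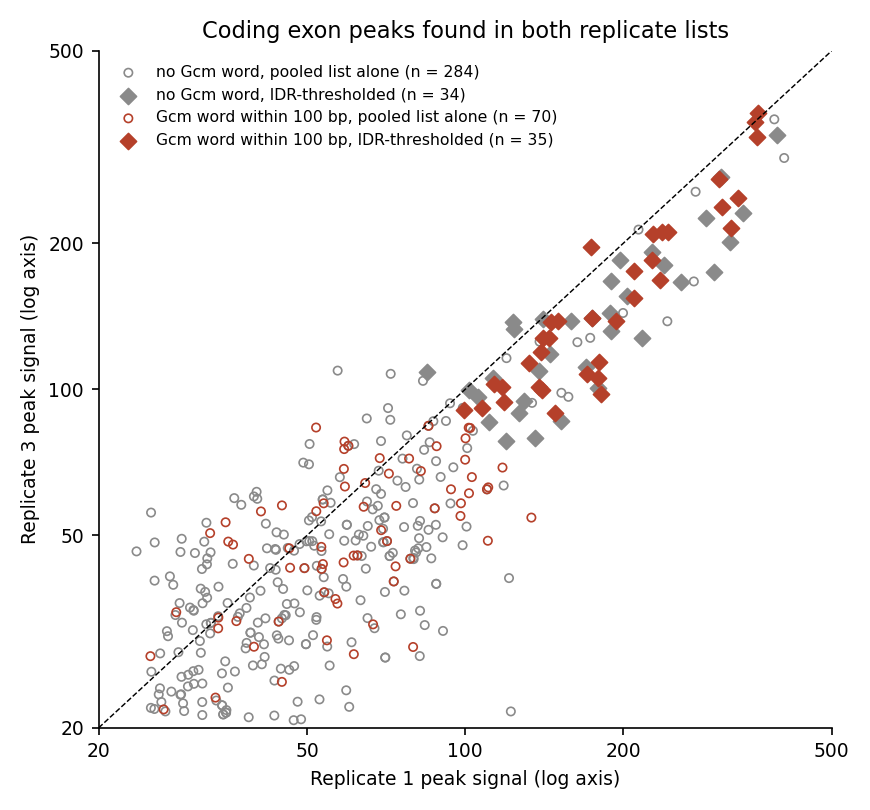
Each point is a coding exon peak found in both replicate lists, with the authors' signal in replicate 1 on the x axis and in replicate 3 on the y axis, both on log scales; the dashed line marks equal values. Filled diamonds passed the IDR threshold and colour marks a Gcm word within 100 bp of the summit. The 35 IDR-thresholded peaks with the word are spread over the same heights as the 34 without it.

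The highest coding exon peak lay in CG13728 on 3L, in the second of its 2 coding exons, 538 bp from the gene start. Its signal was 734 in the pooled list, rank 503, with 361 in replicate 1 and 373 in replicate 3. The word lay 29.5 bp to the left of the summit. Pde1c on 2L, a gene of the cyclic nucleotide phosphodiesterase family, followed with 728 in the pooled list, 393 in replicate 1 and 334 in replicate 3. Its summit fell in the last coding exon, 33 bp from the exon's end, and lacked the word. Both peaks were high in both replicates.

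Pgm2a, of the phosphoglucomutase family, had a pooled signal of 723, with 358 in replicate 1 and 357 in replicate 3. SCaMC, which encodes a mitochondrial carrier, had 693, with 360 and 331 in replicates 1 and 3, and its summit lay in coding exon 6 of 7. In hpo, which encodes the Hippo kinase of the growth control pathway, the signal was 583, with 331 in replicate 1 and 249 in replicate 3. These peaks each held the word within 100 bp, as did those of the glutathione S-transferase gene GstE13 (545) and of Ehbp1 (573), a gene of membrane traffic. In all 5 genes the replicate 1 value was above the replicate 3 value, on scales set separately, and each peak passed the IDR threshold. By rank within each replicate's own list, Pgm2a, SCaMC and Ehbp1 stood higher in replicate 3, and hpo and GstE13 in replicate 1.

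Transcription factor genes were also among the 12 highest. In trh, the bHLH-PAS factor that specifies the tracheal system, the pooled signal was 581, with 308 in replicate 1 and 275 in replicate 3, over a coding exon of 68 bp. The homeodomain gene otp had 520, with 319 and 202 in replicates 1 and 3. The cell cycle factor gene E2f1 had 516, with 287 in replicate 1 and 226 in replicate 3, and its summit lay in the first coding exon. None of these 3 summits had the word, and otp and E2f1 had the CAG triplet repeat. CG9663 (570) also lacked the word and CG15822 (548) held it 87.5 bp from the summit. In all, 5 of the 12 highest coding exon peaks lacked the word.

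The next IDR-thresholded peaks with the word lay in mld, Ogdh, Sdb, ss and ssx. The zinc finger gene mld, needed for ecdysone synthesis, had a pooled signal of 449 (238 in replicate 1 and 211 in replicate 3). Ogdh, a subunit gene of the 2-oxoglutarate dehydrogenase complex, had 445 (243 and 211), with the centre of the word 1.5 bp from the summit. The bHLH-PAS factor gene ss had 422 (227 and 185) with its summit at the edge of a coding exon. The RNA-binding protein gene ssx had 408 (235 and 168), and Sdb had 440 (228 and 209). The replicate 1 signal was again the larger number in each. By rank within each replicate's own list, ssx stood higher in replicate 1 and mld, Ogdh, Sdb and ss in replicate 3.

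The Gcm word lay within 100 bp of 138 of the 664 summits, 20.8% (17.8 to 24.1%). An equal window 1000 bp to the left held it in 6 of 664, or 0.904% (exact McNemar test, 136 against 4 members, adjusted p = 2.94e-34 over 13 words). Of the 197 members whose left flank was itself centred in coding sequence, 25.4% held the word at the summit and 1.52% in the flank (exact McNemar test, p = 5.52e-12). Over all coding sequence cut into 94051 windows of the same length the share was 1.59%. The replicates' own coding exon summits held the word in 19.2% and 18.6% of cases. One copy was present in 133 of the 138 and a pair of copies in 5.

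The word was more frequent at coding exon summits than at summits elsewhere. Intron and intergenic summits held it in 4.84% (1011 of 20881), an odds ratio of 5.16 (4.20 to 6.30; two-sided Fisher's exact test, p = 4.44e-45). Over all intron windows of the same length the share was 0.915% and over all intergenic windows 0.868%, against 1.59% of all coding windows. The odds ratios given here are not adjusted for that difference. UTR summits held it in 6.72% (Fisher's exact test against coding, p = 1.74e-16) and summits within 500 bp of a gene start in 2.92% (p = 8.48e-62). Among IDR-thresholded peaks the shares were 50.7% (35 of 69; 38.4 to 63.0%) and 12.3% of intron and intergenic peaks, an odds ratio of 7.34 (4.39 to 12.3; Fisher's exact test, p = 2.78e-14). Outside that list they were 17.3% and 3.45% (odds ratio 5.86, Fisher's exact test, p = 1.12e-38). In every step of rank that held coding exon peaks the coding share was above that of intron and intergenic peaks, from 70.0% (7 of 10) against 14.1% at ranks 501 to 1000 to 9.09% (17 of 187) against 1.48% at ranks 25001 to 30000.

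Coding exon peaks with the word were higher and were more often in both replicate lists. Median signal was 107.7 with the word and 56.2 without it. Counted as peaks within the IDR list, the same difference in height gave 25.4% of the 138 and 6.46% of the 526 without the word (Fisher's exact test, adjusted p = 1.16e-08). Both replicate lists held 76.1% and 60.5% (Fisher's exact test, adjusted p = 0.00123), and q-values were under 0.05 for 75.4% and 36.9% (adjusted p = 4.86e-15). The q-value largely follows height in this list, so its shares count the difference in height once more. Recovery in both lists was not compared at matched height. These contrasts, 9 in all, were chosen after values were seen. GC content moved with the word as well, with a median of 56.2% in windows that held it and 53.7% in those that did not, against 40.3% for intron and intergenic summits. The part of GC content in these differences was not tested.

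Words gathered at the summits. Of 197 words within 250 bp of a coding exon summit, 100 (50.8%; 43.6 to 57.9%) were centred within 50 bp of it, where an even spread over the window would give 20%. Around intron and intergenic summits 47.8% of 1561 words were as close. The median distance was 49.5 bp around coding exon summits and 54.5 bp around intron and intergenic ones. Words were counted here whether or not they lay in coding sequence themselves. The word lay to either side of the summit, with 34 words in the 25 bp to its left and 26 in the 25 bp to its right.

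**Figure D3:**
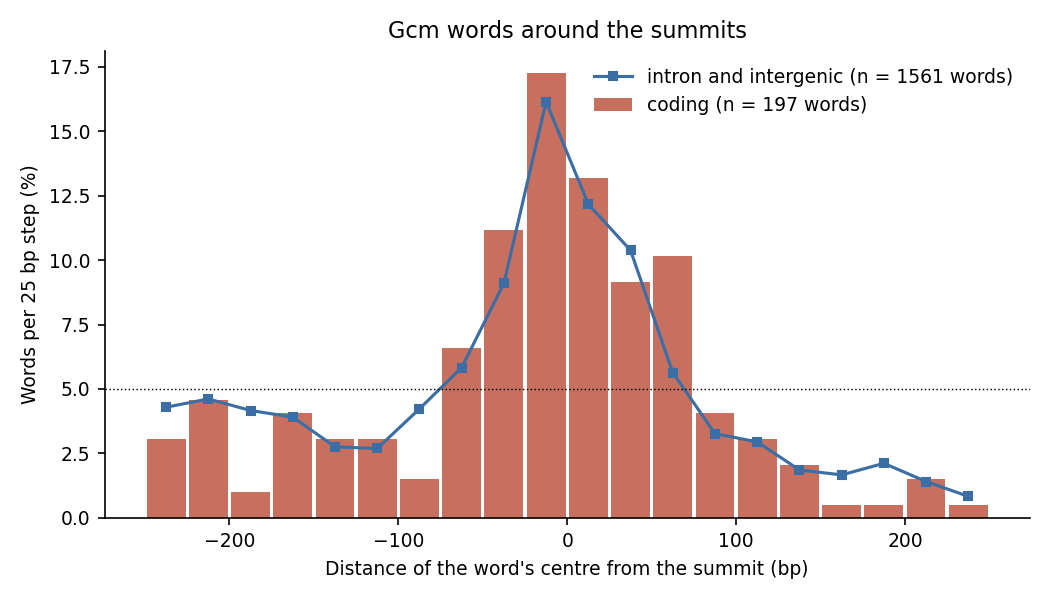
The percent of Gcm words in each step of 25 bp is plotted against the distance of the word's centre from the summit, for coding exon peaks (bars) and intron and intergenic peaks (line with squares); the dotted line is an even spread. Both sets peak in the 50 bp on each side of the summit, with 50.8% of the words around coding exon summits there.

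Seen from the words, coding sequence was the place where a word least often lay at a summit. Coding sequence more than 500 bp from a TSS held 1672 words, 88.6 per Mb, against 45.7 in introns and 45.2 in intergenic sequence. A pooled summit lay within 100 bp of 161 of them, 9.63% (8.26 to 11.1%). The shares were 26.3% in introns, 21.0% in intergenic sequence, 21.9% in UTR and 29.0% within 500 bp of a gene start. Coding words differed from intron and intergenic words together (24.03%) by an odds ratio of 0.337 (0.280 to 0.403; Fisher's exact test, adjusted p = 5.12e-39 over 7 contrasts, which were chosen after values were seen). An IDR-thresholded summit lay at 41 coding words, 2.45%.

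The third base of the word divided the coding words. With G there, 12.5% (140 of 1117) lay at a summit, and with A 3.78% (21 of 555), an odds ratio of 3.64 (2.26 to 6.14; Fisher's exact test, adjusted p = 1.72e-09). Intron and intergenic words divided in the same direction, with 29.2% and 14.1% (Fisher's exact test, adjusted p = 4.01e-29). The form ATGCGGGT lay at a summit in 12.96% of 432 coding cases and ATGCGGGC in 12.3% of 685. The forms ATACGGGT and ATACGGGC did so in 3.45% of 232 and 4.02% of 323. The last base made a difference of 0.0155 percentage points between T and C (odds ratio 1.00, 0.707 to 1.41; Fisher's exact test, adjusted p = 1.00), which leaves differences within that interval undetectable at these counts. At the coding exon summits themselves G was the third base of 123 of 143 words, and of 35 of 38 at IDR-thresholded ones.

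**Figure D4:**
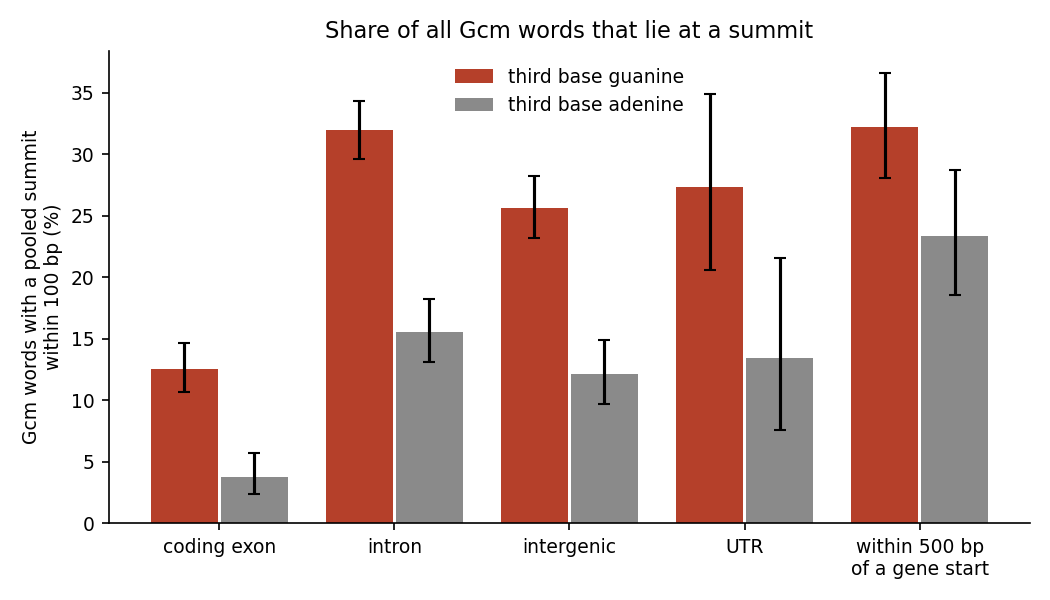
Bars give the percent of all Gcm words in each kind of sequence that had a pooled summit within 100 bp, with 95% exact intervals, for words with guanine and with adenine as the third base. Coding words are lowest for both bases, at 12.5% and 3.78%, against 31.9% and 15.6% in introns.

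Words that read on the coding strand of the gene lay at a summit in 9.39% of 916 cases and words on the other strand in 9.85% of 680 (odds ratio 0.948, 0.669 to 1.35; Fisher's exact test, adjusted p = 0.929). Most sense words began at the second base of a codon, 631 of 916, and 9.35% of these lay at a summit. Sense words that began at the first base did so in 9.31% of 247 cases, and those at the third in 10.5% of 38. On the other strand the shares were 9.76% of 369, 12.9% of 132 and 7.82% of 179 for words whose span began at codon bases 1, 2 and 3. The difference between strands was not detectable at these counts, and codon frames were not tested.

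Other words were counted at the same windows, 13 in all with the Gcm word. Against the left flank 7 of the 13 (53.8%) passed an adjusted p of 0.05 in the exact McNemar test, and against intron and intergenic summits 8 of 13 (61.5%) passed in Fisher's exact test. Besides the Gcm word, the CAG repeat (CAGCAGCAG) was held by 11.1% of coding exon summits, 3.61% of their flanks (exact McNemar test, adjusted p = 7.01e-07) and 1.44% of intron and intergenic summits (odds ratio 8.60, adjusted p = 1.29e-37). The E-box CAGCTG, read by bHLH factors, was held by 15.7%, 10.4% of flanks (exact test, adjusted p = 0.0168) and 7.77% of other summits (adjusted p = 9.98e-11). The ETS factor word CCGGAAG was held by 2.71%, 0.753% of flanks (exact test, adjusted p = 0.0254) and 0.781% of other summits (adjusted p = 3.43e-05).

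The remaining words were mostly less frequent at coding exon summits. The homeodomain core TAATTA was held by 3.31%, against 12.05% of flanks (exact test, adjusted p = 1.66e-09) and 14.8% of intron and intergenic summits (adjusted p = 4.29e-21). The DRE word TATCGATA (0.151% against 1.51% of flanks, exact test, adjusted p = 0.0254) and the Stat92E word TTCNNNGAA (3.77% against 6.63%, adjusted p = 0.0379) were lower than in the flanks. GATA factor words AGATAAG (1.66%) and GAGA words GAGAGAG (1.81%) were lower than at intron and intergenic summits (3.31%, exact test, adjusted p = 0.0232, and 4.42%, adjusted p = 9.75e-04). The Runt word AACCACA was higher than there, at 5.12% against 2.85% (exact test, adjusted p = 0.00272). Words for M1BP (GGTCACACT), Zelda (CAGGTAG) and Su(H) (GTGGGAA) passed in neither comparison.

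The other words were also set against coding sequence at large. Over all coding windows of the same length the E-box was held by 14.4%, the CAG repeat by 5.05%, the homeodomain core by 3.04% and the ETS word by 2.61%. Of these 4 words, the CAG repeat alone was far from coding sequence at large. The Runt word was held by 3.25% of coding windows and 5.12% of summits, and the GAGA word by 1.06% and 1.81%. GATA, M1BP and Su(H) words were also higher at summits, and Zelda, DRE and Stat92E words lower. No word was tested against all coding windows. In the 197 pairs whose flank was also coding, the Gcm word alone of the 13 passed. The CAG repeat there was held by 12.2% of summits and 8.12% of flanks (exact McNemar test, adjusted p = 0.994). Among members without the Gcm word, the IDR threshold was passed by 9.38% of 64 with the CAG repeat and 6.06% of 462 without it (Fisher's exact test, adjusted p = 0.320).

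**Figure D5:**
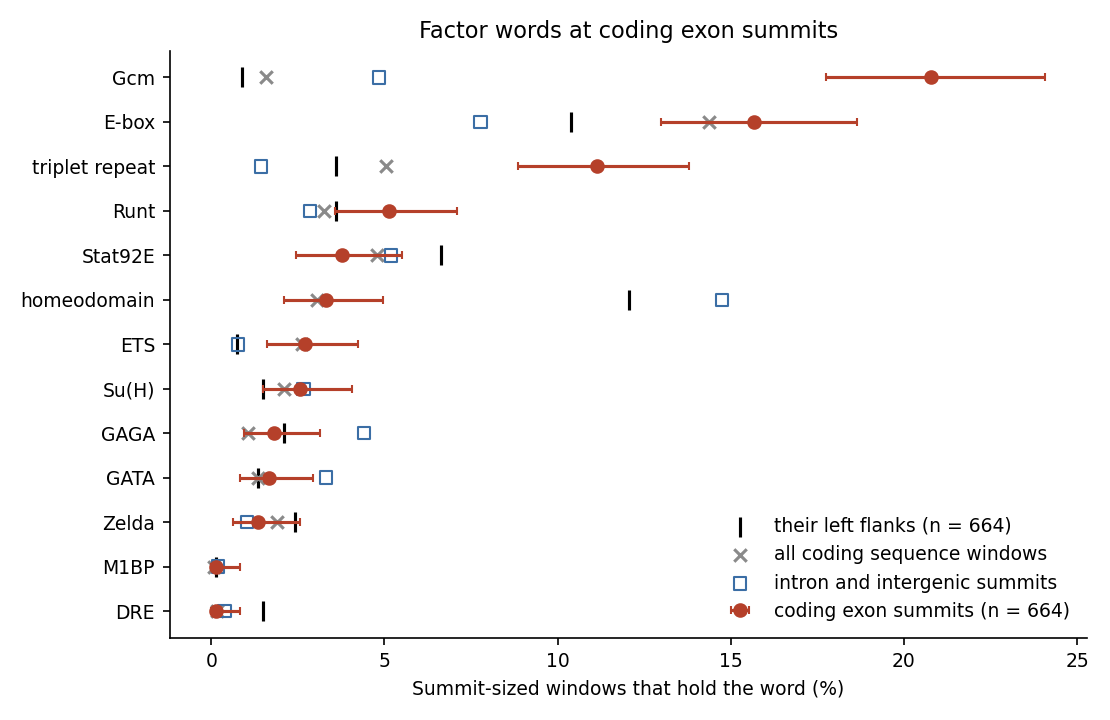
For each of 13 words the x axis gives the percent of windows of 100 bp on each side that hold it, at coding exon summits (circles with 95% exact intervals), in their left flanks (ticks), over all coding sequence (crosses) and at intron and intergenic summits (squares); the triplet repeat is the CAG repeat. The Gcm word (20.8%) and the triplet repeat (11.1%) stand farthest to the right of the other 3 marks, and the Runt, E-box and ETS words by less. The E-box, homeodomain and ETS words lie beside the mark for all coding sequence.

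Within genes, the peaks lay toward first coding exons and exon ends. Of the 664, 620 could be placed in a coding exon of the longest transcript. Of these 114 (18.4%) fell in the first of several coding exons, which held 9.24% of eligible coding bases, and 284 (45.8%) in internal ones, which held 57.1%. Last coding exons held 172 (27.7% against 25.3% of bases) and single coding exons 50 (8.06% against 8.31%). With summits over 1000 bp from a TSS alone, first coding exons held 13.2% of 462 placed members and 7.05% of bases. Of the 620, 324 (52.3%) lay within 100 bp of an exon end, where 36.3% of eligible bases lie. The first stretch of the coding sequence, when it is divided in 3 equal parts, held 37.1% of members and 25.4% of bases. These shares are descriptions with no test.

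The word was rarer in members of first coding exons, in members near an exon end and in members beside a stronger summit. It was held by 10.5% of members in first coding exons and 24.1% of other placed members (adjusted p = 0.0015), by 16.7% within 100 bp of an exon end and 27.0% farther in (adjusted p = 0.00307), and by 3.00% of the 100 with a stronger summit within 500 bp and 23.9% of the 564 without (Fisher's exact test, adjusted p = 1.75e-07). Members in internal coding exons held it in 27.1%, those in last ones in 18.0% and those in single coding exons in 28.0%. Windows within 100 bp of an exon end reach outside that exon, and the part of this in the difference was not tested. Distance to the gene start showed no such order, with 18.7% at 501 to 1000 bp, 19.2% at 1001 to 2000 bp, 23.8% at 2001 to 5000 bp and 21.5% beyond.

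Starts of noncoding genes and repeated sequence were checked near the peaks. The start of an annotated noncoding gene lay within 500 bp of 12 members (1.81%) against 4.34% of intron and intergenic summits (Fisher's exact test, p = 5.91e-04). Intron summits alone had 2.29%, and the difference from them did not pass (exact test, p = 0.504). No member had a near-identical copy of its window elsewhere on the arms, which allows a share of up to 0.452% by the limit of 3 counts, against 26 of 20881 other summits. Another pooled summit lay within 500 bp of 27.6% of members and 37.0% of intron and intergenic summits (exact test, p = 4.56e-07).

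The 664 peaks lay in 538 genes, 3.86% of the 13945 protein-coding genes, and the 69 IDR-thresholded ones in 67 genes, 0.48%. Of the 538, 440 held 1 peak, 77 held 2, 15 held 3, 5 held 4 and 1 held 6. A summit within 500 bp of the gene's own start was present for 79.7% of them and an intron summit for 61.2%, against 34.9% and 15.4% of all protein-coding genes. Neither was present for 72 (13.4%). The median coding length of the 538 was 1935 bp against 1176 bp for all genes, and longer genes offer more coding bases to a peak.

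Cda5, a chitin deacetylase gene, held the most, with 6. Its strongest had a pooled signal of 268 (145 in replicate 1 and 128 in replicate 3), held the word and passed the IDR threshold, as did a second of 199 without it. The other 4 of its peaks were between 47.9 and 57.4. The genes bif, smal, hth and klar held 4 each, as did CG43736. In bif, which encodes an actin-linked protein of the eye, the strongest was 267 (170 in replicate 1 and 111 in replicate 3) and passed the IDR threshold, and the next, 272 bp away, was 133 and fell in the same replicate peaks. The strongest of smal was 146 and held the word, that of the homeodomain gene hth 134, and that of klar, a gene of organelle transport, 106. None of these last 3 passed the IDR threshold.

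The gene lists used from here on were chosen with earlier results of these data known, and no list was tested. Genes known in glia held coding exon peaks in 6 of 23 cases (26.1%), beside the background of 3.86%. Their 10 peaks made up 1.51% of members, on 0.256% of eligible coding bases, and 1 of the 10 held the word and passed the IDR threshold. That peak lay in pnt, an ETS factor gene active in glia, with 321 in the pooled list, 194 in replicate 1 and 138 in replicate 3, and its word was printed above. In gcm2, the neighbouring paralog of gcm, 3 peaks had signals of 90.7, 41.2 and 38.9. The peak of 68.0 in ttk, a repressor of neuronal fate, was found in both replicate lists, as was that of 62.9 in repo, the glial homeodomain gene. Nrg (46.5) and gcm (49.1), which the naming rule did not pick, were added after their values were seen. The gcm peak was absent from the replicate 1 list and stood at 37.4 in replicate 3, and the labelled insertion targets this gene, so its part in that value was not tested.

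Segmentation genes held peaks in 5 of 22 cases (22.7%), beside 3.86% of all genes, with 1.05% of members on 0.158% of eligible coding bases. In ftz, a pair-rule homeodomain gene, the pooled signal was 271, with 145 in replicate 1 and 119 in replicate 3, and the peak passed the IDR threshold with the CAG repeat and no Gcm word. The pair-rule gene odd (98.2), the Hedgehog receptor gene ptc (80.7), the gap gene Kr (56.8) and the pair-rule gene hry (44.8, added after its value was seen) did not pass it. Of the bHLH and Sox genes, many of which lack introns, 3 of 24 (12.5%) held peaks, again beside 3.86%, with 0.753% of members on 0.102% of eligible coding bases. They were ase, a neural precursor factor, with 119, SoxN with 109 and Sox15 with 97.3. None of these list members held the word.

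Plasmatocytes are the macrophage-like blood cells of the embryo. Of their genes 2 of 21 (9.52%) had a peak, beside 3.86% of all genes, and the peaks made up 0.301% of members on 0.402% of eligible coding bases. They lay in Col4a1, a collagen IV gene, with 114 (79.7 in replicate 1 and 44.6 in replicate 3) and NimC4, an engulfment receptor gene, with 38.01, found in replicate 3 alone. Cadherin and ZP-domain matrix genes had 2 of 24 (8.33%), on 0.694% of eligible coding bases and with 0.301% of members. These were shg, which encodes E-cadherin, with 63.9 and mey with 46.0. Crystal cell genes had 0 of 6, neuronal genes 0 of 15 and strongly expressed cytoskeletal, translation and heat shock genes 0 of 25. Against 3.86% of all genes, lists this short say little by a count of 0. Gene length differs between lists, and no list was tested.

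Across the arms, 120 members lay on 2L, 155 on 2R, 142 on 3L, 142 on 3R, 3 on 4 and 102 on X. Arm 2R held 23.3% of members on 19.2% of eligible coding bases, and X 15.4% on 17.8%. The share with the word ran from 17.6% on 3L to 24.5% on X among the large arms. At the 500 bp limit, the members just inside were summits in slmb (90.2) and pyd (64.4), both 506 bp from a TSS. Just outside were a pair of summits in CG30344 at 494 bp, of which 1 (422, rank 1558) passed the IDR threshold.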

How the data were processed

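The authors deposited 4 peak lists on dm6, per the labels and file descriptions: 1 per replicate, 1 on both replicates pooled, and the IDR-thresholded list, all with the same control alignment. Peak height is the signal the authors' caller gave, and the deposited q-value is a −log10 q-value with a ceiling of 4.28 in the pooled list. These scores are the authors' own, and replicate and pooled scales differ. Not given in the sources used here: aligner, caller, versions and IDR threshold. Depth is unknown. The replicates share a donor label, so the spread between them may be technical.

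Positions are 1-based. Gene models were those of Ensembl release 115 (BDGP 6.54) and bases were read from the Release 6 assembly, on arms 2L, 2R, 3L, 3R, 4 and X. Sequence was used in the 100 bp on each side of a summit, and the flank was an equal window 1000 bp to the left. Tests ran in Python 3.11.15 with scipy 1.17.1 (Fisher's exact and exact McNemar tests, two-sided, Benjamini-Hochberg adjusted where stated), and were tested on simulated data. Copies were sought with blastn 2.17.0 (90% identity over 150 bp). Summits share genes and libraries and are not replicates, and every interval covers counting error only. Members, words and gene lists were chosen with earlier results of these data known. Named peaks were the 12 highest members, the 12 highest IDR-thresholded members with the word, the 5 genes with most members, up to 4 genes per list, and summits beside the 500 bp limit. The symbol dp matched no gene.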

Additional observations from a re-analysis of the deposited data

How the results depend on the processing

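Shares with the Gcm word, recovery in the IDR-thresholded and replicate lists and the third-base contrast kept their direction and call under every alternative run. For the IDR list this does not cover the runs without a replicate, which had no such list. Member counts have no direction or call, and they moved with the rule. The 664 members in 538 genes became 493 in 387 genes with a TSS limit of 1000 bp. They became 554 in 468 genes where every spanning transcript had to be coding. The runs included windows of 50 and 250 bp. Leaving out summits with a stronger one within 500 bp was chosen after seeing the data (23.9% of 564 members held the word). Leaving out each replicate in turn gave 733 to 736 members in 601 to 605 genes, with 18.6 to 19.2% holding the word. First coding exons held 18.4 to 19.0%, and 8.91 to 9.81% of coding words lay at a summit. In place of the IDR list, these runs took the highest peaks of the remaining replicate's own list, as many as the IDR list holds. That rank cut took in 9.65 to 10.5% of members and is no measure of repeatability. The count of words that passed against the flank was 7, and it was 4 with the right flank and 1 with flanks centred in coding sequence. In those 197 pairs the DRE word (0.508% against 0%) and the homeodomain core (4.06% against 3.55%) lay the other way and the E-box was equal (18.8% in both). First coding exons held 13.2% of placed members with a limit of 1000 bp. The share near a noncoding gene start (1.81%) did not pass against intron summits alone (2.29%) (exact test, p = 0.504), and at 95% identity over 100 bp a copy was found for 0.151% of members against 0.134% (exact test, p = 0.597). The cause was not tested in any of these. Peak height and the q-value ceiling limit how finely weak peaks can be ranked. No paired analysis was possible because the replicates form 1 group.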
